A study of Mus musculus with 18 samples.

Results

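The groups labelled DCR1_Tha and AGO2_Tun had high levels of Acta2 and Tagln, genes of the smooth muscle actin cytoskeleton, and both genes were near background in the other 4 groups. These 2 groups hold 6 of the 18 libraries of the series, 3 libraries in each of 6 groups of mouse embryonic fibroblasts, which are cultured connective tissue cells grown from embryos. DCR1_Tha is labelled AGO2 +/+ and was given thapsigargin at 500 nM, a drug that empties the calcium store of the endoplasmic reticulum (ER). AGO2_Tun is labelled AGO2 -/- and was given tunicamycin, a drug that blocks the attachment of sugars to proteins in the ER. The other groups are DCR1_dmso (labelled AGO2 +/+, vehicle DMSO), AGO2_Tha (AGO2 -/-, thapsigargin at 500 nM), DCR1_Tun (AGO2 +/+, tunicamycin) and AGO2_dmso (AGO2 -/-, DMSO). The pair thus shares neither a labelled genotype nor a labelled treatment. It was chosen by measured values: the genes of interest are those whose lower value in the pair exceeded the highest value in the other 4 groups, or the reverse, on autosomes. The levels behind that choice are therefore a description, and no test was made on them.

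The deposited table gives 1 pooled FPKM value (a level scaled for the length of the transcript and for the number of mapped fragments) for each locus and group. It holds no replicate values, so no SD, n or p is given for any level, and the sequencing depth of each library is unknown. All differences below are on the log2(FPKM + 1) scale, which understates the change of genes with low values. The gap of a gene is the distance on that scale between the pair and the nearest of the other 4 groups, so that a gap of 1 means that both groups of the pair lay at least 2-fold from all 4 others. A gene whose values overlap between the pair and the others has a gap of 0.

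Fibroblasts that contract, often called myofibroblasts, assemble actin filaments with smooth muscle isoforms of actin, myosin light chain and calponin, and secrete fibrillar collagen. The programme is switched on in wound healing and fibrosis. Its actin genes are driven by serum response factor (SRF), which binds a short element called the CArG box, together with the cofactors MRTF-A (Mkl1) and MRTF-B (Mkl2), which enter the nucleus when free actin monomer falls. YAP and its DNA-binding partners, the TEAD factors, respond to the same mechanical state, and TGF-beta is the main secreted inducer.

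Several measurements bear on the labels. Ago2, the gene targeted in the AGO2 -/- cells, had 17.0 FPKM in DCR1_Tha, labelled +/+, and 15.5 FPKM in AGO2_Tun, labelled -/-. In the other groups it had 22.1 FPKM in DCR1_dmso, 20.7 in AGO2_Tha, 5.75 in DCR1_Tun and 5.61 in AGO2_dmso, so its level did not follow the labelled genotype. Which part of the gene was deleted was not stated, and the cell lines were not authenticated, although loss of the AGO2 protein in the AGO2 -/- cells was tested by western blot. The genotype fields of 4 of the 18 libraries, 1 of them in the pair, contradict each other. Of the genes on the Y chromosome, Uty, Kdm5d, Ddx3y and Eif2s3y had between 6.03 and 32.3 FPKM in the pair and were listed at 0 in the other 4 groups. The locus of Xist, the RNA of the inactive X chromosome, had 0.0102 and 0.00612 FPKM in the pair, 46.6 in DCR1_dmso, 33.5 in AGO2_Tha and at most 0.0574 in the others. A difference in the source of the cells and an effect of genotype or drug cannot be told apart with these groups, and each group name below is the label only.

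By the levels of all 12569 autosomal loci with at least 1 FPKM in 1 group, the 2 groups of the pair lay close together. Pearson's r of log2(FPKM + 1) across these loci was 0.984 between DCR1_Tha and AGO2_Tun, against 0.885 to 0.909 between either of them and any other group. The other 4 groups fell into 2 such pairs as well, DCR1_dmso with AGO2_Tha (r = 0.978) and DCR1_Tun with AGO2_dmso (r = 0.983). Loci share a library and are not independent, so these coefficients are descriptions.

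Of the 12569 loci, 397 were at least 2-fold higher in both groups of the pair than in each of the other 4 (3.16% of the loci), and 166 were at least 2-fold lower (1.32%). With a gap of any size, 3255 loci lay above all 4 others (25.9%) and 2976 lay below (23.7%). The rest overlapped, and the counts of overlapping genes in the lists below stand beside these shares. The same rule gave 182 higher (1.45%) and 240 lower loci (1.91%) for DCR1_dmso with AGO2_Tha, and 371 higher (2.95%) and 241 lower loci (1.92%) for DCR1_Tun with AGO2_dmso. Among its 397 higher loci, 125 had a gap of at least 2 and 13 a gap of at least 4, and 78 were under 0.1 FPKM in all 4 other groups. Of the 166 lower loci, 39 had a gap of at least 2, and 21 were under 0.1 FPKM in both groups of the pair. Just inside the limit on the higher side were Zfp532, Anxa6 and Enpp1, with gaps of 1.0004, 1.002 and 1.003, and just outside it were Npy1r (0.999), Rtraf (0.997) and Ephb3 (0.995). On the lower side, Emp1, Tpd52 and Inpp4b (-1.005, -1.005 and -1.007) were just inside, and Acadl, Nfat5 and Mt1 (-0.996, -0.986 and -0.984) just outside.

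**Figure D1:**
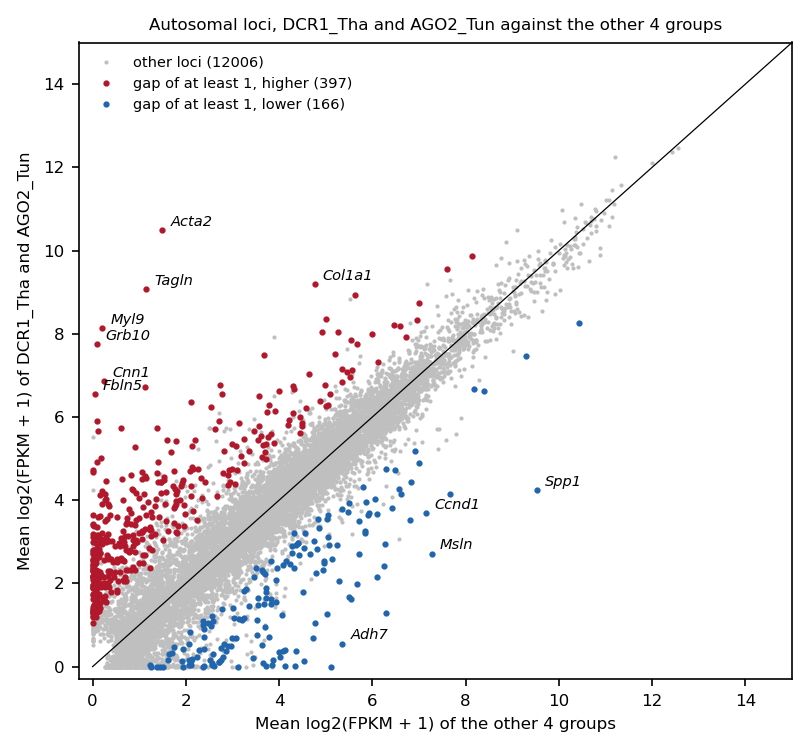
Each point is 1 of 12569 autosomal loci, with the mean log2(FPKM + 1) of the other 4 groups on the x axis and that of DCR1_Tha and AGO2_Tun on the y axis. The 397 loci that lay at least 2-fold above all 4 groups are red, the 166 that lay at least 2-fold below are blue, and Acta2, Tagln, Myl9 and Grb10 stand farthest above the diagonal.

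Acta2 and Myl9, genes of the contractile apparatus, had the largest gaps of the named genes. Acta2, smooth muscle alpha-actin (chr19:34241090-34255590, minus strand, GRCm38), had 1644 FPKM in DCR1_Tha and 1252 FPKM in AGO2_Tun. It had 0.644 FPKM in DCR1_dmso, 3.77 in AGO2_Tha, 1.75 in DCR1_Tun and 1.92 in AGO2_dmso, a gap of 8.04. Acta2 was the locus of rank 34 by FPKM among all loci in DCR1_Tha and of rank 40 in AGO2_Tun, and no value of the other 4 groups came near those of the pair. Myl9, the regulatory myosin light chain of smooth muscle (chr2:156775420-156781658, plus strand), had 312 and 252 FPKM in the pair and 0.0346 to 0.251 FPKM elsewhere, a gap of 7.66. Tagln, the actin-binding protein SM22 (chr9:45929619-45936058, minus strand), had 648 and 444 FPKM in the pair, 2.90 and 2.33 in DCR1_dmso and AGO2_Tha, and 0.363 and 0.333 in DCR1_Tun and AGO2_dmso. Cnn1, calponin 1, which binds actin and restrains myosin, had 126 and 105 FPKM in the pair and 0.0538 to 0.361 elsewhere. Actg2, the gamma-actin of visceral smooth muscle, had 38.2 and 25.6 FPKM against 0.0215 to 0.229, and Lmod1, a nucleator of actin filaments, had 5.34 and 4.92 FPKM against at most 0.0313.

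Of the 37 contractile genes on the list, 33 had at least 1 FPKM in 1 group, 3 stayed under 1 FPKM in all groups and 1 (Acta1) was not found as a locus. Of the 33, 12 were at least 2-fold higher in the pair and 0 were at least 2-fold lower, beside 3.16% and 1.32% of all loci. A further 16 lay above all 4 other groups by less than 2-fold, beside 22.7% of all loci, and 5 overlapped them. The median difference between the mean of the pair and the mean of the other 4 was 1.02 over these genes, beside 0.00 over all loci tested. The list includes Acta2 and Tagln, which the pair was chosen by, so its count is no independent evidence. The remaining genes past 2-fold were expressed in all 6 groups: Tpm1, a tropomyosin that stabilises actin filaments, had 945 and 912 FPKM in the pair and 199 to 386 elsewhere, and Tpm2 had 242 and 188 against 46.8 to 57.5. Pdlim7 (gap 1.64), Csrp1 (1.55), Csrp2 (1.68) and Cnn2 (1.28), which link actin to signalling proteins or bind it, also passed. Non-muscle myosin heavy chains lay closer, with gaps of 0.55 for Myh9 and 0.84 for Myh10.

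The label of a smooth muscle programme held only in part. Myh11, the myosin heavy chain that defines differentiated smooth muscle, had 0.0591 and 0.073 FPKM in the pair, overlapping the 0.028 to 0.0636 of the other groups. Myocd, the smooth muscle cofactor of SRF, had 0.0406 and 0.148 FPKM. Mylk, the kinase that activates smooth muscle myosin, had 0.309 and 0.547 FPKM in the pair and 1.31 and 1.55 in DCR1_dmso and AGO2_Tha. Des, which encodes the muscle intermediate filament desmin, had 0.397 and 0.499 FPKM in the pair and up to 2.95 elsewhere. Of the fibroblast markers, Vim and Ddr2 were high in all 6 groups (952 and 76.3 FPKM or more), whereas Thy1 was listed at 0 in all of them and Fap, Dpt and Pdpn stayed under 0.1 FPKM.

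**Figure D2:**
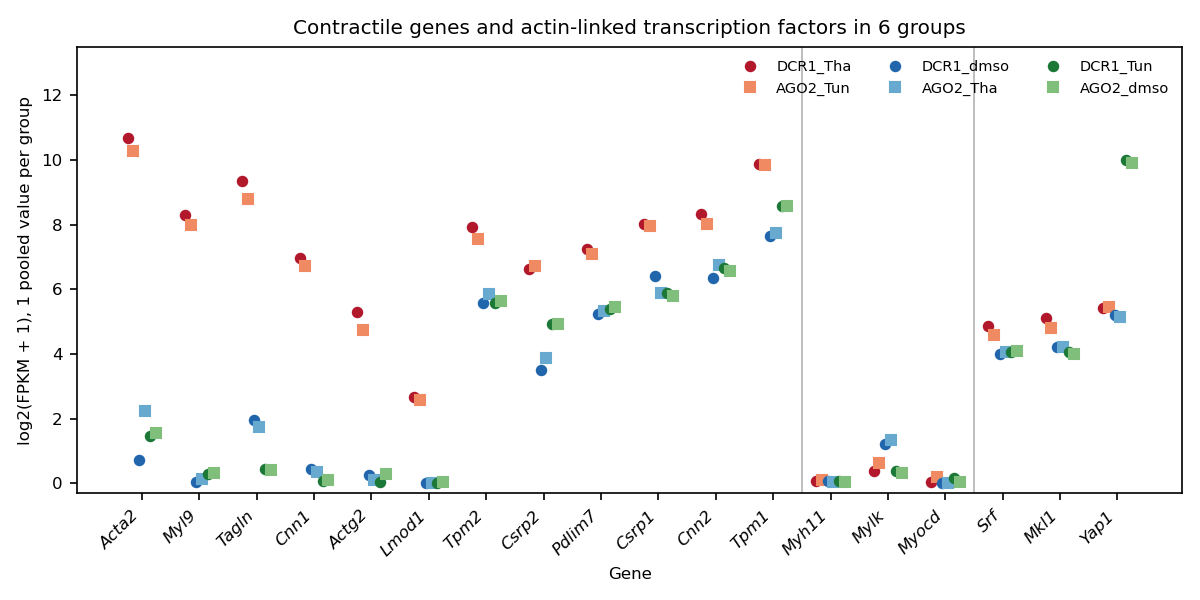
log2(FPKM + 1) of 18 genes (x axis) in the 6 groups, 1 pooled value per point, with DCR1_Tha as red circles and AGO2_Tun as orange squares. The 12 contractile genes past 2-fold are left of the first line, with both groups of the pair on top. Myh11 and Myocd, between the lines, are near 0 in all groups and Mylk is highest in DCR1_dmso and AGO2_Tha. At the right, Srf and Mkl1 lie less than 2-fold above the others and Yap1 is highest in DCR1_Tun and AGO2_dmso.

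Srf and Mkl1, known drivers of such actin genes, lay above all 4 other groups by less than 2-fold. Whether they drive the genes above in these cells was not tested. Srf had 28.1 and 23.4 FPKM in the pair and 15.1 to 16.3 FPKM elsewhere, a gap of 0.50, and Mkl1 had 33.7 and 27.2 against 14.9 to 17.8, a gap of 0.58. Mkl2 overlapped the other groups. Of 12 autosomal genes of the list with at least 1 FPKM, 0 passed 2-fold in either direction and 6 overlapped the other groups. By the difference of means, 1 was at least 2-fold higher and 3 lower, beside 909 and 684 of the 12569 loci. Tead3 lay above all 4 other groups (24.8 and 24.9 FPKM against 5.88 to 14.4), and Tead4 lay below them (7.29 and 6.81 against 12.9 to 35.8). Yap1 had 42.4 and 43.3 FPKM in the pair, close to DCR1_dmso and AGO2_Tha (35.9 and 34.7) and far below DCR1_Tun and AGO2_dmso (1035 and 972). Fhl1, an X-linked LIM protein outside the autosomal rule, had 162 and 117 FPKM in the pair, 23.4 and 9.42 in DCR1_dmso and AGO2_Tha, and under 0.1 in the others. Of 14 genes known to be induced by YAP or SRF, 3 were at least 2-fold higher and 1 lower, beside 3.16% and 1.32% of all loci. Ctgf, a matricellular growth factor, had 260 FPKM in DCR1_Tha, 125 in AGO2_Tun and 7.45 to 17.9 elsewhere. Dlc1 (gap 2.18) and Vgll3 (1.23) were also higher, and Fosl1, an AP-1 subunit, was lower (34.3 and 24.3 FPKM against 72.0 to 189.9).

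SRF and TEAD bind promoters among other sites. Of the 12 contractile genes past 2-fold, 9 had an entry in the RefSeq promoter table. Those with an element in the promoter window (250 bases before to 50 after the start, GRCm38.p6) are shown by their 200 bases upstream of the start, 5′ to 3′ on the gene's strand. Capitals mark a strict CArG box in Myl9 and Cnn2 and the TEAD core GGAATG in Acta2, Tpm1 and Lmod1, searched on both strands.
Acta2 (chr19:34255374-34255573, minus strand): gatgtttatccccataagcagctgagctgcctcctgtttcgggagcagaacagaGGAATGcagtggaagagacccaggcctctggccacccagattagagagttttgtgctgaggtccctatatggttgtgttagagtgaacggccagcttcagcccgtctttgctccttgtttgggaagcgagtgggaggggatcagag
Myl9 (chr2:156775264-156775463, plus strand): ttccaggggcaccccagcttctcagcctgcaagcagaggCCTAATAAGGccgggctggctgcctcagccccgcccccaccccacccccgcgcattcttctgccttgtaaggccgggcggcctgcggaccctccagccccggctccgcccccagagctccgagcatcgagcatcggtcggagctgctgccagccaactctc
Cnn2 (chr10:79988400-79988599, plus strand): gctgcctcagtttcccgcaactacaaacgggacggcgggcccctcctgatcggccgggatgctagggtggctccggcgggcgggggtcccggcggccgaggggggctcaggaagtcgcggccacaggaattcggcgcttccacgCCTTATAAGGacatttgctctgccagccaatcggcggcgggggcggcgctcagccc
Tpm1 (chr9:67049214-67049413, minus strand): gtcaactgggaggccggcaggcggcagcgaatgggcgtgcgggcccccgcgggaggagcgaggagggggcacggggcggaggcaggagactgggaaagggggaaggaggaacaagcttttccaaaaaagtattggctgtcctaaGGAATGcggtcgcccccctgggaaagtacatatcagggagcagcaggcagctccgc
Lmod1 (chr1:135324613-135324812, plus strand): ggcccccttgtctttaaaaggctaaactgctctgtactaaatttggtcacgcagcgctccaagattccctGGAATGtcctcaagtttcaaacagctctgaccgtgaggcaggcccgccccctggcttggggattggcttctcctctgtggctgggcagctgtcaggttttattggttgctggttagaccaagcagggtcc

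The box began 161 bases before the start in Myl9 and 56 bases before it in Cnn2. The TEAD core began 146 bases before the start in Acta2, 56 in Tpm1 and 130 in Lmod1. A promoter was found for 269 of the 392 higher genes with a single name, 354 windows in all, and 8 of these windows (2.26%) held a CArG box, beside 1.54% of the windows of the lower genes, 1.298% of the 10866 windows of all genes tested and 1.63% of all 32851 windows. Beside Myl9 and Cnn2, the genes were Creld1, Fermt2, Glipr2, Rap1gap2, Ripor2 and Tbc1d9. The TEAD core stood in 16.7% of the windows of the higher genes, 17.7% of those of the lower genes and 11.8% of those of all genes tested. The TATA box (TATAAA) stood in 6.21%, 11.5% and 6.82% of these windows. The median GC content of the windows was 61.3% for the higher genes and 61.3% for all genes tested, and the median ratio of observed to expected CpG was 0.650 and 0.769. No match says only that these letters are not in the window: elements farther away or of a looser sequence were not searched. The printed Acta2 bases, for example, hold ccctatatgg, a looser form of the CArG box that the strict search did not mark.

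Of 27 collagen chains, which form the fibres and sheets of the matrix, 18 had at least 1 FPKM in 1 group, and of these 8 were at least 2-fold higher in the pair and 2 at least 2-fold lower, beside 3.16% and 1.32% of all loci. The same shares apply to each list below. The median difference from the mean of the other 4 groups was 1.52. Col1a1 was given as a marker of this pair beforehand, so the count of collagen chains is no independent evidence. Col1a1, a chain of type I collagen (chr11:94936224-94953042, plus strand), had 521 and 651 FPKM in the pair, 112 and 87.1 in DCR1_dmso and AGO2_Tha, and 6.77 and 5.97 in DCR1_Tun and AGO2_dmso. Col1a2, which joins it in the same triple helix, had 410 and 577 FPKM, then 86.2 and 101, then 26.8 and 23.7. The levels of both genes thus fell into 3 steps, with DCR1_dmso and AGO2_Tha in the middle. In this order of the pair means, the pair was at the top and DCR1_Tun with AGO2_dmso at the bottom. It held for 10 of the 18 collagen genes, a share not computed over all loci. Col12a1, a collagen that coats fibrils, was instead low in all 4 other groups (0.863 to 3.01 FPKM against 48.9 and 55.3), as were Col11a1 (10.8 and 21.2 FPKM against at most 0.508) and Col27a1 (1.66 and 1.89 against at most 0.0186). Col5a2 (gap 1.70), Col5a3 (1.48) and Col6a2 (1.71) completed the set. Col8a1, a short-chain collagen of vessel walls, was lower in the pair, with 12.3 and 11.1 FPKM against 52.5 to 85.6, and so was Col18a1, the source of endostatin, with 5.001 and 6.13 FPKM against 14.2 to 32.4. The basement membrane chains Col4a1 and Col4a2 lay below all 4 other groups by less than 2-fold (gaps of -0.49 and -0.44).

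Of 25 measured genes that modify, process or crosslink collagen, 8 were higher past 2-fold and 1 lower. The lysyl oxidases crosslink collagen and elastin, and 4 of the 5 passed: Lox had 101 and 114 FPKM in the pair, 44.2 and 42.2 in DCR1_Tun and AGO2_dmso and under 0.01 in DCR1_dmso and AGO2_Tha, whereas Loxl2 had 32.0 and 44.8 in the pair, 4.51 and 1.09 in DCR1_dmso and AGO2_Tha and at most 0.0405 in the others. Loxl1 (gap 2.01) and Loxl3 (1.18) passed as well, and Loxl4 overlapped the other groups. Adamts2, which removes the amino-terminal propeptide of procollagen, had 6.74 and 9.21 FPKM against at most 0.133. The prolyl hydroxylases P3h1 (gap 1.29), P3h3 (1.52) and P4ha3 (1.06) were higher and P3h2 was lower (-1.16). The general collagen chaperone Serpinh1 had 904 and 901 FPKM against 299 to 562, a gap of 0.68.

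**Figure D3:**
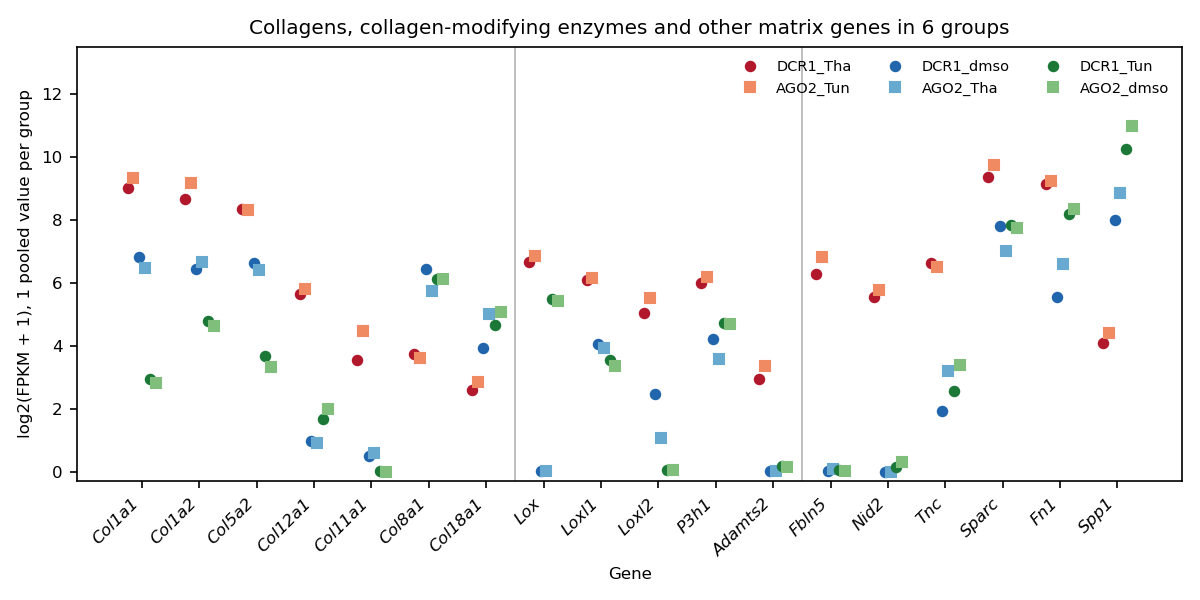
log2(FPKM + 1) of 18 genes (x axis) in the 6 groups, 1 pooled value per point; the lines separate collagens, collagen-modifying enzymes and other matrix genes. DCR1_Tha (red circles) and AGO2_Tun (orange squares) are above the other groups except for Col8a1, Col18a1 and Spp1, where they are lowest.

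Among 34 genes of elastic fibres and matrix glycoproteins, 27 were measured, and 15 were at least 2-fold higher and 1 lower (3.16% and 1.32% of all loci), with a median difference of 1.97. Fbln5, a protein needed for elastic fibre assembly, had 76.6 and 113 FPKM in the pair and at most 0.0541 elsewhere, a gap of 6.20. Nid2, which bridges laminin and collagen IV in basement membranes, had 46.1 and 53.5 FPKM and was listed at 0 in DCR1_dmso and AGO2_Tha. Its relative Nid1 differed: 48.7 and 53.4 FPKM in the pair, 64.7 and 51.1 in DCR1_Tun and AGO2_dmso, and under 0.1 in the remaining pair. Tnc, tenascin C, a glycoprotein of healing tissue, had 97.1 and 90.1 FPKM against 2.82 to 9.42. Sparc (664 and 863 against 127 to 227), Thbs1 (246 and 213 against 19.2 to 97.2), Postn (4.77 and 10.1 against at most 0.0251) and Ltbp2, Efemp1, Emilin1, Mfap2 and Serpinf1 (gaps of 2.35, 3.35, 2.14, 2.22 and 1.57) were in the same group. Fn1, fibronectin, was high in the pair (567 and 600 FPKM) but its gap was 0.80, since DCR1_Tun and AGO2_dmso had 290 and 326 FPKM. Eln, the elastin gene itself, stayed under 1 FPKM in all groups. Spp1, osteopontin, went the other way: 16.0 and 20.1 FPKM in the pair, 256 and 461 in DCR1_dmso and AGO2_Tha, and 1214 and 2015 in DCR1_Tun and AGO2_dmso. Of the small leucine-rich proteoglycans, only 3 autosomal members reached 1 FPKM and 0 passed 2-fold; Dcn and Lum were at most 1.06 FPKM in every group. X-linked Bgn, biglycan, which the autosomal rule leaves out, had 498 and 469 FPKM in the pair and 0.667 to 6.24 FPKM elsewhere.

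Of 19 measured matrix proteases and inhibitors, 6 were higher past 2-fold and 0 lower. Mmp2, which degrades gelatin and collagen IV, had 18.9 and 23.5 FPKM against at most 0.523, and Mmp14, its membrane-bound activator, had 83.7 and 81.4 against 20.5 to 39.7. Adamts5 (gap 2.93), Mmp23 (2.17), Adamts12 (1.95) and Plat (1.12) completed the set.

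In the TGF-beta and BMP family, 5 of 32 measured genes were higher past 2-fold, 0 were lower and 18 overlapped, with a median difference of -0.10. The ligands Tgfb2 (17.5 and 19.02 FPKM against 1.38 to 4.14) and Tgfb3 (19.3 and 19.5 against 1.82 to 5.26) were higher, while Tgfb1 had 6.49 and 7.62 FPKM against 6.61 to 19.6. The co-receptor Eng (gap 1.32) and the follistatin-like genes Fstl1 (2.37) and Fstl3 (2.39) passed, and the receptors Tgfbr1 and Tgfbr2 and Smad3 overlapped the other groups. Among other growth factor genes, Egfr (15.5 and 14.6 FPKM against 1.41 to 5.18), Fgfr3 (gap 1.21) and Igf1 (1.31) were higher, and Areg, an EGF receptor ligand, was lower (0.263 and 0.364 FPKM against 3.71 to 65.8), as was Igfbp6 (-1.16). Of 16 measured Wnt ligands, antagonists and related genes, 4 were higher and 1 lower. Wnt5a, a ligand of the non-canonical pathway, had 8.26 and 6.99 FPKM against at most 0.0276, and Rspo2, which amplifies Wnt signals, had 5.93 and 7.85 against at most 0.118. Wisp1 (gap 1.15) and Wisp2 (1.61) were also higher. Wnt7b was nearly absent from the pair (0.0153 and 0.00467 FPKM) and had 4.54 to 23.6 FPKM elsewhere.

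Fibroblasts keep the expression of transcription factors that mark their place of origin in the body. Of 37 measured mesenchymal and positional transcription factors, 17 overlapped the other groups, 5 were higher past 2-fold (Osr1, Tbx3, Gata2, Gata6 and Hand2) and Runx1 was lower. Gata6, a factor of heart and vessel mesenchyme, had 6.85 and 8.36 FPKM in the pair, at most 0.00785 in DCR1_dmso and AGO2_Tha, and 1.35 and 1.24 in DCR1_Tun and AGO2_dmso. Tbx3 had 9.71 and 9.88 FPKM against at most 1.74, and Hand2 had 1.29 and 1.27 FPKM and was listed at 0 in the other 4. Runx1 had 4.13 FPKM in both groups of the pair against 11.4 to 17.7. The Hox genes, which record position along the body axis, gave 1 gene past 2-fold of 29 measured, a share near the 3.16% of all loci. Hoxb9 had 74.3 and 76.1 FPKM in the pair, 34.0 and 31.6 in DCR1_Tun and AGO2_dmso, and under 0.1 in DCR1_dmso and AGO2_Tha. The HoxC genes had at most 0.0301 FPKM in the pair, with Hoxc8 listed at 0 there against 25.1 and 25.6 FPKM in DCR1_Tun and AGO2_dmso. All 9 HoxD genes on the list were listed at 0 in both groups of the pair, and Hoxd13 had 6.03 and 11.3 FPKM in DCR1_dmso and AGO2_Tha. Several neighbouring Hox genes share a locus and a joint value in the table.

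Imprinted genes are read from 1 parental copy, and 3 of 17 measured were higher past 2-fold and 1 lower. Grb10, an adaptor that restrains insulin and growth factor signalling (chr11:11930508-12038683, minus strand), had 205 and 223 FPKM in the pair and 0.176, 0.057, 0.0494 and 0.00824 FPKM in DCR1_dmso, AGO2_Tha, DCR1_Tun and AGO2_dmso. Its gap was 7.45. Cdkn1c, a cell cycle inhibitor (7.81 and 11.0 FPKM against at most 0.186), and Plagl1, a zinc finger factor (5.90 and 7.65 against at most 0.337), were also higher. Phlda2 was lower (0.352 and 0.949 against 3.63 to 13.8). Peg10 overlapped the other groups, and Dlk1 and Meg3 were listed at 0 in all 6.

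Of the 15 largest gaps on the higher side, the genes not yet described were of several kinds. Ptn, pleiotrophin, a heparin-binding growth factor, had 39.7 FPKM in DCR1_Tha, 87.25 in AGO2_Tun and at most 0.126 elsewhere. Creb3l1, an ER-bound transcription factor that activates collagen secretion genes, had 51.2 and 53.3 FPKM in the pair, 0.12 and 0.17 in DCR1_dmso and AGO2_Tha, and 1.08 and 0.99 in DCR1_Tun and AGO2_dmso. Slc1a6, a glutamate transporter (23.5 and 27.1 FPKM), and Gjb2, the gap junction protein connexin 26 (27.6 and 21.7 FPKM), were under 0.1 FPKM in the other 4 groups. Cd34, a surface marker of progenitors and some fibroblasts, had 24.5 and 34.5 FPKM against at most 0.143. Ptx3, a secreted pattern-recognition protein, had 122 and 89.2 FPKM, 5.14 and 2.60 in DCR1_dmso and AGO2_Tha, and at most 0.03 in the others. Papss2, which makes the sulphate donor for proteoglycans, had 16.0 and 19.7 FPKM against at most 0.19.

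Of the 166 lower loci, 14 were members of the gene lists, most of them given above. Adh7, an alcohol dehydrogenase that oxidises retinol, had 0.52 and 0.42 FPKM in the pair and 34.4 to 44.5 FPKM in the other 4, the largest gap on this side (-4.55). Ifi202b and Ifi204, DNA sensors of the interferon-inducible p200 family, had gaps of -4.24 and -2.94, and Ifi202b had 17.9 to 66.9 FPKM in the other groups. Sigirr, a brake on interleukin 1 receptor signalling, had 0.03 and 0.16 FPKM against 16.9 to 29.9. The adhesion genes Itgb7 (0.341 and 0.252 FPKM against 13.6 to 30.5), Cdh13, which encodes T-cadherin (1.64 and 1.20 against 27.4 to 37.0), Podxl (gap -3.05) and Cadm1 (-2.65) were lower, and so was Itga6, a laminin receptor (-2.04). Not all of these lower genes are on the list of integrins and adhesion genes. Among the 20 measured members of that list, 3 were higher past 2-fold and 3 lower, the higher being Cd34, Itga11, a collagen receptor (gap 2.37), and Cdh11 (2.26). Msln, mesothelin, had 4.64 and 6.66 FPKM in the pair and 77.0 to 279 elsewhere. Kcnn4, Trim54 and Prkg2 had gaps of -3.37, -2.85 and -2.53. Ccnd1, cyclin D1, had 13.4 and 10.6 FPKM against 85.7 to 207. Of 33 cell cycle genes it was the 1 past 2-fold in either direction. The proliferation genes Mki67 (58.5 and 64.7 FPKM) and Top2a (209.7 and 218 FPKM) were close to the other groups (56.2 to 75.4 and 224 to 302 FPKM).

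**Figure D4:**
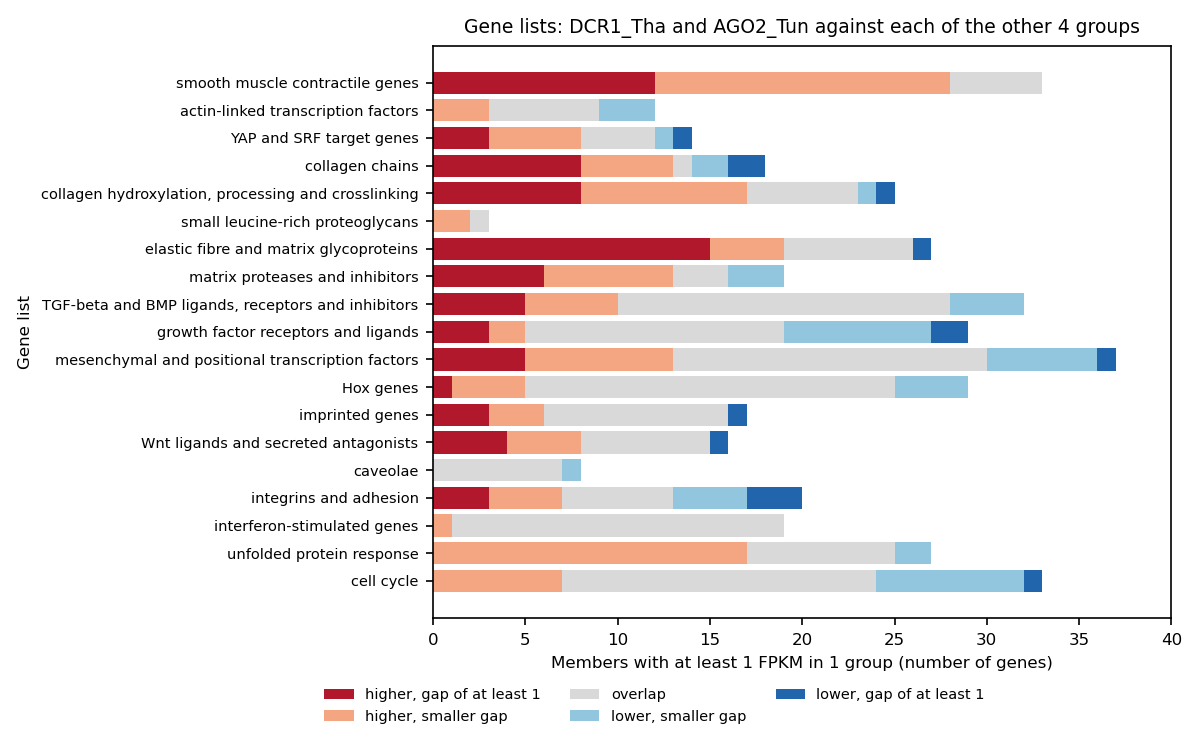
Bars give, for each of 19 gene lists, the number of members with at least 1 FPKM in 1 group, split by where DCR1_Tha and AGO2_Tun lay against the other 4 groups. Elastic fibre and matrix glycoproteins (15 of 27), contractile genes (12 of 33), collagen chains (8 of 18) and collagen-modifying enzymes (8 of 25) held the most genes at least 2-fold higher (dark red), while actin-linked transcription factors, small leucine-rich proteoglycans, caveolae, interferon-stimulated, unfolded protein response and cell cycle genes held 0.

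Both groups of the pair are labelled as treated with an ER stressor. Of 27 genes of the unfolded protein response, which ER stress induces, 0 passed 2-fold, beside 3.16% higher and 1.32% lower of all loci. AGO2_Tha and DCR1_Tun, among the other 4 groups, are also labelled as treated, so this count cannot show a response to the labelled stressors. Hspa5, the ER chaperone BiP, had 5367 and 5155 FPKM in the pair, 4808 and 7682 FPKM in the groups labelled DMSO and 3677 and 6746 in the other groups labelled as treated. Ddit3, the stress factor CHOP, had 345 and 349 FPKM against 237 to 339. Of the 27 genes, 17 lay above all 4 other groups by less than 2-fold, beside 22.7% of all loci, and the median difference was 0.33. Among them were Dnajc3 (gap 0.62), Edem1 (0.72) and Asns (0.52). Ern1, the ER stress sensor IRE1, lay below all 4 (9.36 and 9.41 FPKM against 18.4 to 42.8). Interferon-stimulated genes lay between the other 2 pairs for 14 of 19 measured genes, a share not computed over all loci. Isg15, for example, had 2.34 and 5.56 FPKM in the pair, 39.2 and 21.4 in DCR1_dmso and AGO2_Tha, and 0.881 and 1.43 in DCR1_Tun and AGO2_dmso. Of 8 measured caveolar genes, 7 overlapped the other groups. Over all loci, 25.9% lay above and 23.7% below all 4 others with a gap of any size, and the rest overlapped.

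Of the marker lists of other cell types, most genes were low. All 6 endothelial markers stayed under 1 FPKM in every group, as did 5 of 6 macrophage markers, with Ptprc and Adgre1 at or near 0 and Cd68 at 1.13 to 1.82 FPKM. Of 7 epithelial markers 6 stayed under 1 FPKM, and Krt19 was higher in the pair (15.8 and 11.7 FPKM against 0.395 to 3.43). The skeletal muscle factors Myod1 and Myog were at most 0.0201 FPKM, and Myf5 was listed at 0 in the pair. Summed, the 6 skeletal muscle markers had 18.96 FPKM in DCR1_Tun, 11.83 in AGO2_dmso and at most 0.472 in each other group. Of these 6 markers, 5 stayed under 1 FPKM in every group. The 1 measured marker differed by -3.996 between the pair and DCR1_Tun with AGO2_dmso, and by 0 between the pair and DCR1_dmso with AGO2_Tha. Of 3 measured neural markers and 2 measured skeletal markers, 0 passed 2-fold in either direction. Of 5 measured fibroblast markers, S100a4 was lower (gap -1.50), at a locus that covers several genes. The summed level of the 8 smooth muscle markers was 2507 and 1868 FPKM in the pair and 26.0 to 36.4 in the other groups, mostly from Acta2 and Tagln, which the pair was chosen by. Without these 2 genes the sum was 215 and 173 FPKM against 23.8 to 30.3. The summed level of the 9 fibroblast markers was lower in the pair, 1644 and 1466 FPKM against 3302 to 3783. This sum includes the S100a4 locus. Of the other measured fibroblast markers, 1 lay above all 4 other groups and 1 below them by less than 2-fold, and 2 overlapped. The median difference of the 5 measured markers was 0.35, so the list as a whole was not lower. Of the 5 pericyte markers, Rgs5 and Kcnj8 were under 1 FPKM, Mcam was higher (35.5 and 34.8 FPKM against 4.52 to 8.71) and 2 overlapped the other groups. Of 3 measured adipocyte markers, Pparg was higher (4.13 and 3.09 FPKM against at most 0.277) and 2 overlapped the other groups. Adipoq and Plin1 were near 0. In these bulk cultures a larger share of contractile cells and more RNA per cell cannot be told apart.

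Within the pair, 73 loci were at least 2-fold higher in DCR1_Tha than in AGO2_Tun (0.581%) and 84 were at least 2-fold lower (0.668%). The median absolute difference between the 2 groups was 0.11 over all loci tested and 0.18 over the 397 higher loci, of which 5 differed by 2-fold or more. DCR1_Tha was below AGO2_Tun at 49.5% of all loci tested and at 69.5% of the 397 higher loci. The contractile genes were nearly all higher in DCR1_Tha (28 of 33, median difference 0.17), as were 12 of the 14 YAP and SRF targets (median 0.38), whereas 15 of 18 collagen genes were higher in AGO2_Tun (median difference -0.23). All 19 measured interferon-stimulated genes were also higher in AGO2_Tun (median difference -0.54). With 1 value a group, the spread behind these differences is not known. Among loci with at least 10 FPKM in 1 group of the pair, DCR1_Tha exceeded AGO2_Tun for Ppm1h, a protein phosphatase (21.9 against 0.39 FPKM), Ddhd1 (46.3 against 9.17), Il31ra (32.1 against 7.72) and Eno1b (231 against 111). AGO2_Tun exceeded DCR1_Tha most for Nhej1, listed at 0 in 5 groups and at 2085 FPKM in AGO2_Tun, then Nrp1, a semaphorin and VEGF co-receptor (151 against 27.2), St7 (52.9 against 15.2), Il1rn (25.0 against 9.08) and Mgp, matrix Gla protein (83.6 against 32.6). The Nhej1 locus of the table (chr1:75125136-75125200) is far shorter than a gene, so its value may be a failed estimate, and it is 1 of the 84 loci.

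The loci were not evenly spread over the chromosomes. On chromosome 10, 45 of 627 loci (7.18%) were at least 2-fold higher in the pair and 3 (0.478%) lower, and on chromosome 6, 34 of 639 (5.32%) were higher, beside 3.16% over all autosomes. On chromosome 7, 15 of 959 (1.56%) were higher and 19 (1.98%) lower. The same held for broadly expressed genes: over the 507 loci of chromosome 10 that reached 1 FPKM in every group, the median difference from the mean of the other 4 groups was 0.33 in DCR1_Tha and 0.30 in AGO2_Tun. The medians were 0.26 in both for chromosome 14, and -0.27 and -0.31 for chromosome 12. Over all 9930 such loci the median difference was 0.01. The medians of DCR1_Tha and AGO2_Tun had the same sign on every autosome. The number of chromosome copies was not measured.

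**Figure D5:**
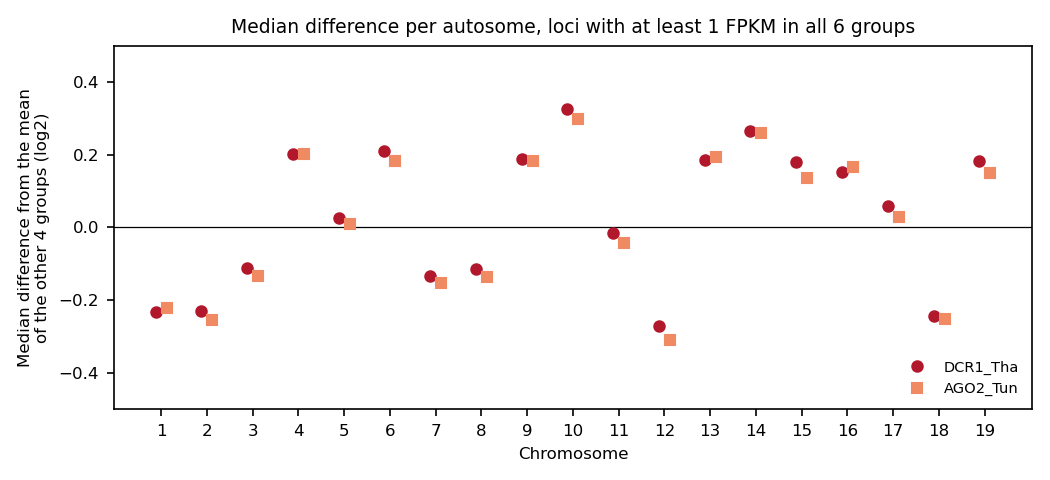
For each autosome (x axis), the median difference in log2(FPKM + 1) from the mean of the other 4 groups, over loci that reached 1 FPKM in every group, for DCR1_Tha (circles) and AGO2_Tun (squares). Both groups are highest on chromosome 10 (0.33 and 0.30) and lowest on chromosome 12 (-0.27 and -0.31).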

How the data were processed

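RNA from mouse embryonic fibroblasts was sequenced in 18 libraries, 3 in each of 6 groups. Per the submitters' processing notes, the tools were FastQC 0.11.7, HISAT2 2.1.0, StringTie 1.3.4d and Cuffdiff 2.2.1, with genome build GRCm38. The authors deposited 1 table of FPKM values, pooled over the replicates of a group, with columns of their own pairwise fold changes and p-values, which were not used. No counts are given there, so depth is unknown.

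Groups follow the sample titles. Loci on autosomes with a gene name and at least 1 FPKM in 1 group were kept (12569 of 51499 loci). FPKM values were put on a log2 scale with a pseudocount of 1, and the gap rule was applied with Python 3.11.15, pandas 2.3.3 and numpy 2.4.6 after it was tested on simulated data. No significance test was made, since the values used are 1 per group. A locus whose name covers several genes (355 of those tested) carries their joint value, and 6319 share their span with another locus.

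The pair of groups, the 19 gene lists and the 10 marker lists were chosen with earlier results of these data known. Named genes are the members of the lists, the 15 largest gaps in each direction among loci with 1 name (without pseudogenes, predicted and ribosomal genes), the 5 largest differences in each direction within the pair, the genes beside the limit and the label checks; the CArG box genes were named after their values were seen. 1 gene that the rule names is not reported here. Gene coordinates come from GENCODE M21 and promoter sequences from RefSeq, both GRCm38. Alternatives changed the pseudocount, scaling, filter, threshold and the groups included.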

Additional observations from a re-analysis of the deposited data

Results flagged for a closer look

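For 8 of the 30 genes with the largest gaps, the labelled change under tunicamycin against DMSO went in opposite directions in the groups labelled DCR1 and those labelled AGO2, by at least 1 on the log2(FPKM + 1) scale in each. Tagln was -1.52 in DCR1 and 8.38 in AGO2, and Ptx3 was -2.57 and 6.49. The signs were turned for Spp1 (2.24 and -6.58), Msln (1.42 and -5.19), Trim54 (1.61 and -4.53), Cadm1 (2.95 and -5.40), Ccnd1 (1.27 and -4.07) and Prkg2 (1.04 and -4.20). These genes were chosen by the gap between the pair and the other groups. The large AGO2 change, which sets AGO2_Tun against AGO2_dmso, therefore followed from that choice. The share of all loci with such opposite signs was not computed. By the same rule, no gene of the 30 went in opposite directions under thapsigargin against DMSO. With 1 value per group, none of these differences was tested. All of these contrasts set groups of different pairs against each other.

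Loci on the X and Y chromosomes, which the autosomal rule leaves out, held 20 of 444 at least 2-fold higher in the pair and 6 lower. Over the autosomal loci the shares were 3.16% and 1.32%. Of the 20 higher loci, 15 were on the X chromosome and 5 on the Y chromosome. Bgn (498 FPKM in DCR1_Tha and 469 in AGO2_Tun) and Fhl1 (162 and 117) are on the X chromosome. The Y-linked genes Ddx3y (23.3 and 24.7), Eif2s3y (32.3 and 30.3), Kdm5d (7.77 and 7.97) and Uty (6.03 and 6.64) were listed at 0 in the other 4 groups.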

How the results depend on the processing

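The gaps of the 30 genes with the largest values kept their sign and stayed at 1 or more in size in all 330 recomputations, over 11 settings. Under the difference of means, that difference stood in place of the gap. These genes were chosen for large gaps, the smallest in size being that of Cystm1 (-2.52), so this outcome was largely set by the choice. Counts moved with the treatment of low values. With a pseudocount of 5, 175 loci were higher in the pair and 60 lower, with 0.1 there were 325 lower, and among loci that reached 1 FPKM in every group 113 and 98. By the difference of means the counts were 909 and 684, with any gap 3255 and 2976, and with a gap of at least 2, 125 and 39. For DCR1_dmso with AGO2_Tha, the higher and lower counts under these settings in that order were 66 and 84 (pseudocount 5), 294 and 416 (pseudocount 0.1), 52 and 83, 539 and 835, 2237 and 2441, and 54 and 75, and 113 were higher without pseudogenes, predicted and ribosomal genes. For DCR1_Tun with AGO2_dmso they were 176 and 77, 477 lower with a pseudocount of 0.1, then 134 and 105, 866 and 777, 3332 and 3291, and 109 and 67. Within the pair, pseudocounts of 0.1 and 5 and the filter on all 6 groups gave 121, 31 and 17 loci higher in DCR1_Tha and 170, 29 and 20 higher in AGO2_Tun. By the difference of means 136 list members were higher in place of 76 and 50 lower in place of 14 (6 with a pseudocount of 5), and 13 collagen chains were higher in place of 8. Of 575 other recomputed list counts and medians, 481 stayed within the limit, 80 moved and 14 medians changed sign: the TGF-beta list to 0.0338 and 0.0237 without DCR1_Tun and AGO2_dmso, growth factors to 0.0228 with a pseudocount of 0.1, caveolae to -0.015 without DCR1_Tha, integrins to 0.0712 with a pseudocount of 0.1 and 0.0143, 0.0182, 0.0247, 0.0797 and 0.0478 without AGO2_Tun, DCR1_dmso, AGO2_Tha, DCR1_Tun and AGO2_dmso, interferon-stimulated genes to 0.041 and 0.1122 without DCR1_Tha and DCR1_dmso, and cell cycle genes to -0.0521 and -0.0773 without DCR1_Tun and AGO2_dmso. The cause was not tested.

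No paired analysis was possible because the table holds 1 pooled value per group, and for the same reason no replicate was left out. Depth is unknown.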
